A study of Homo sapiens with 12 samples.

Results

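Long noncoding RNAs and the transcripts that host small nucleolar RNAs (snoRNAs) were followed through streptavidin pull-downs of 2 biotinylated microRNAs. Members were chosen by name from the annotation of the array's probes. They are genes whose symbol starts with SNHG or LINC and a number, or ends in -AS and a number (antisense) or in -DT (divergent transcript), together with 12 well-known noncoding RNAs. Of 9581 genes with a name and a value 72 were members, measured by 81 of 15025 probes. They comprise 15 snoRNA hosts and 57 other transcripts. RefSeq's gene table lists 70 members as long noncoding RNA, GNAS-AS1 as antisense RNA and TUG1 as protein-coding. Of the 12 RNAs listed by name, 6 had a probe in the table (ZFAS1, EPB41L4A-AS1, DANCR, TUG1, CYTOR and OIP5-AS1), while GAS5, MALAT1, NEAT1, MEG3, H19 and NORAD were not analysed here.

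The RNA came from the line HEK293T, derived from human embryonic kidney and carrying SV40 large T antigen. All cells had received 200 pmol of a biotin-labelled synthetic duplex, of miR-3118-3p or of miR-4307-3p, by lipid transfection, and were harvested 24 hours later. The 12 Illumina bead arrays form 4 groups of 3, namely the miR-3118-3p pull-down and its input, and the miR-4307-3p pull-down and its input. In a pull-down the microRNA and the RNA bound to it were recovered on streptavidin beads, and an input sample was taken without that step. No pull-down with an unrelated or unbiotinylated RNA was analysed here, so RNA held by the beads themselves cannot be told apart from RNA held by the microRNA. Whether replicates are separate cultures is not in the labels. The p-values therefore measure the spread between these samples alone, and that spread may be technical. The samples are bulk RNA of 1 cell line, so fewer cells with a transcript and less of it per cell cannot be told apart. All 7 HEK293T markers looked up were in the table (VIM, NEFL, NEFM, KRT8, KRT18, LIN28B and MYC), with mean log2 signals in the inputs from 6.62 to 12.21, and of 5 blood markers 0 were. Of 3 hepatocyte markers 1 was, at 6.54.

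Most long noncoding RNAs are transcribed, capped, spliced and given a poly(A) tail as mRNAs are, without a long reading frame. A snoRNA host carries snoRNAs in its introns. When the host is spliced, the introns release box C/D snoRNAs (SNORD genes), which guide ribose methylation of ribosomal RNA, or box H/ACA snoRNAs (SNORA genes), which guide pseudouridylation. The spliced exons that remain reach the cytoplasm, and in several hosts they are engaged by ribosomes and removed by nonsense-mediated decay. Many host genes start transcription at a C followed by a run of pyrimidines, the 5′ terminal oligopyrimidine (TOP) start that they share with ribosomal protein genes. A microRNA in Argonaute mainly finds RNA by pairing through its seed, bases 2 to 8.

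The seeds of the 2 microRNAs are unlike each other, and both mature sequences are given from RefSeq (GRCh38.p14), 5′ to 3′, with the seed in capitals. RefSeq lists each microRNA without the suffix of the labels, on the 3′ arm of its hairpin. The first is encoded by 4 genes with the same mature sequence, of which MIR3118-1 lies at chr21:13644784-13644806 on the minus strand, and the second by MIR4307 at chr14:26908697-26908715 on the plus strand.
hsa-miR-3118: uGUGACUGcauuaugaaaauucu
hsa-miR-4307: aAUGUUUUuuccuguuucc

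All 15 hosts had at least 1 annotated snoRNA gene within their span in RefSeq's gene table, from 1 (SNORD87 in SNHG6 and SNORA24 in SNHG8) to 9 in SNHG1, and 0 of the 57 other members had any. Promoter sequences were matched for 12 hosts and 45 of the others. A pyrimidine start was looked for as a C within 3 bases of the annotated start on the gene's own strand, followed by at least 4 bases that were all C or T. It was present in 8 of 12 host promoters (66.7%), 7 of 53 promoters of the other members (13.2%) and 4574 of 35116 promoters in the table (13.0%). The match is a description of letters and not of a mapped start in these cells. Of the matched hosts, EPB41L4A-AS1 and SNHG8 were called lower in a pull-down and had no run. DANCR, SNHG4 and SNHG12 had a run and were called in no comparison of the main fit, and SNHG1 and SNHG11 had neither. Whether a run goes with a lower value was not tested. Stretches of 25 bases before and 25 from the annotated start are shown for 5 hosts that were lower in a pull-down, 1 host that was lower without such a run, and 2 other members, with the run in capitals. They come from RefSeq promoters (GRCh38.p14), 5′ to 3′ on the strand of the gene.
SNHG5, chr6:85678709-85678758, minus strand: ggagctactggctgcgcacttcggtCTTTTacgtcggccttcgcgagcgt
SNHG32, chr6:31834891-31834940, plus strand: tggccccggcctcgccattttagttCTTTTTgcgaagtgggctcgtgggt
SNHG7, chr9:136728160-136728209, minus strand: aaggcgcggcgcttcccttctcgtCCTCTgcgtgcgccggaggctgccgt
ZFAS1, chr20:49278617-49278666, plus strand: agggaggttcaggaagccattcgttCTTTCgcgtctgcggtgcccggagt
SNHG17, chr20:38435304-38435353, minus strand: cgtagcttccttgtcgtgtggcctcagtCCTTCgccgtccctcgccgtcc
EPB41L4A-AS1, chr5:112160501-112160550, plus strand: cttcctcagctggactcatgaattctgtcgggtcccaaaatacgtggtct
OIP5-AS1, chr15:41283965-41284014, plus strand: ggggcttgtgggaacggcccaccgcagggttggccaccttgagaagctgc
TUG1, chr22:30969240-30969289, plus strand: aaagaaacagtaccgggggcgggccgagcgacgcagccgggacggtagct

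Values are log2 signals of the deposited table, with array medians between 7.53 and 7.59, so that higher and lower are meant relative to all other RNA measured. The lowest value of the table was 5.53. Of the 72 members 36 had a mean within 1 of it, 2 of them hosts, and for those a change may be understated. Among pull-downs of miR-3118-3p replicate 1 stood apart, with correlations across probes of 0.963 and 0.968 to the others of its group, against 0.983 between replicates 2 and 3. Counts and calls that rest on that pull-down are therefore given with and without it. Differences are pull-down minus input with the standard error (SE) of a limma fit over all 12 arrays, n = 3 per group, and adjusted p-values cover all 9581 genes at a threshold of 0.05. Where groups of 3 arrays are said not to overlap, that is a description and not a test. It also held for members that were not called, such as CYTOR, ZFAS1 and LINC00092 with miR-3118-3p. Its share over all genes is not given here.

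Several snoRNA host transcripts were lower with miR-3118-3p, pull-down against input, and no host was called higher. Of all 72 members 5 rose and 13 fell. Without pull-down replicate 1 the counts were 6 and 17, where 17.7% of all genes rose and 15.2% fell. Of the 15 hosts 7 fell and 0 rose, which is 46.7% lower, where 10.9% of all genes were lower and 12.7% higher. The median difference of the hosts was -0.38, against -0.002 over all genes. Of all hosts 13 lay below 0, against 50.2% of all genes.

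SNHG6, host of SNORD87, had values of 9.30, 9.44 and 9.29 in the miR-3118-3p pull-down, against 10.34, 10.05 and 9.88 in its input. All pull-down arrays lay below all input arrays. The difference was -0.75 ± 0.14 (adjusted p = 0.00167). SNHG5, host of SNORD50A and SNORD50B, had 10.65, 10.75 and 10.88 in the pull-down, against 11.59, 11.60 and 11.22 in the input. It fell by 0.71 ± 0.15 (adjusted p = 0.00392), again with no overlap between the groups. SNHG32, host of SNORD48 and SNORD52, had 10.19, 9.73 and 10.13 in the pull-down, against 10.77, 10.49 and 10.63 in the input. The groups did not overlap, and the difference was -0.61 ± 0.14 (adjusted p = 0.00661). Without pull-down replicate 1 SNHG6 was at -0.73, SNHG5 at -0.65 and SNHG32 at -0.70, each still called.

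SNHG9, host of SNORA78, had 7.85, 8.28 and 8.44 in the miR-3118-3p pull-down, against 8.94, 8.83 and 8.53 in its input, a difference of -0.58 ± 0.16 (adjusted p = 0.0147). Replicate 1 was the lowest of the pull-down arrays, and the difference was -0.40 without it (adjusted p = 0.0336). SNHG7, host of SNORA17A and SNORA17B, had 9.01, 9.08 and 9.07 in the pull-down by its brightest probe, against 9.84, 9.40 and 9.54 in the input. That probe fell by 0.54 ± 0.12 (adjusted p = 0.00649). For SNHG9 and SNHG7 the groups did not overlap.

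EPB41L4A-AS1, host of SNORA13, had 9.70, 9.46 and 9.34 in the miR-3118-3p pull-down, against 10.25, 9.96 and 9.87 in its input. The difference was -0.53 ± 0.16 (adjusted p = 0.0273), and its call was lost in 6 of 22 other settings. SNHG8, host of SNORA24, had 6.50, 6.09 and 6.52 in the pull-down, against 6.92, 6.76 and 6.87 in the input, a difference of -0.48 ± 0.14 (adjusted p = 0.0258). For both of them, too, the pull-down arrays lay below the input arrays.

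The 8 hosts that did not pass the test ranged from -0.38 for SNHG1, the host with the most snoRNA genes, to 0.24 for DANCR, which hosts SNORA26. For SNHG1 the 95% interval was -0.67 to -0.08 (adjusted p = 0.0628). Values in between were -0.35 for SNHG15, -0.29 for SNHG17, -0.23 for SNHG12, -0.19 for ZFAS1, -0.11 for SNHG11 and 0.05 for SNHG4. Without replicate 1 of the pull-down 10 hosts were lower and 0 higher, while the shares of all genes were also larger, at 15.2% lower and 17.7% higher. The 7 hosts above were among them, joined by SNHG1 (-0.54), SNHG17 (-0.52) and SNHG15 (-0.44). Without replicate 1 of the input, 4 of 15 hosts were called lower, where 7.32% of all genes were. When the fit used no more than these 6 arrays 3 were, SNHG5, SNHG6 and SNHG32, where 4.27% of all genes were.

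**Figure D1:**
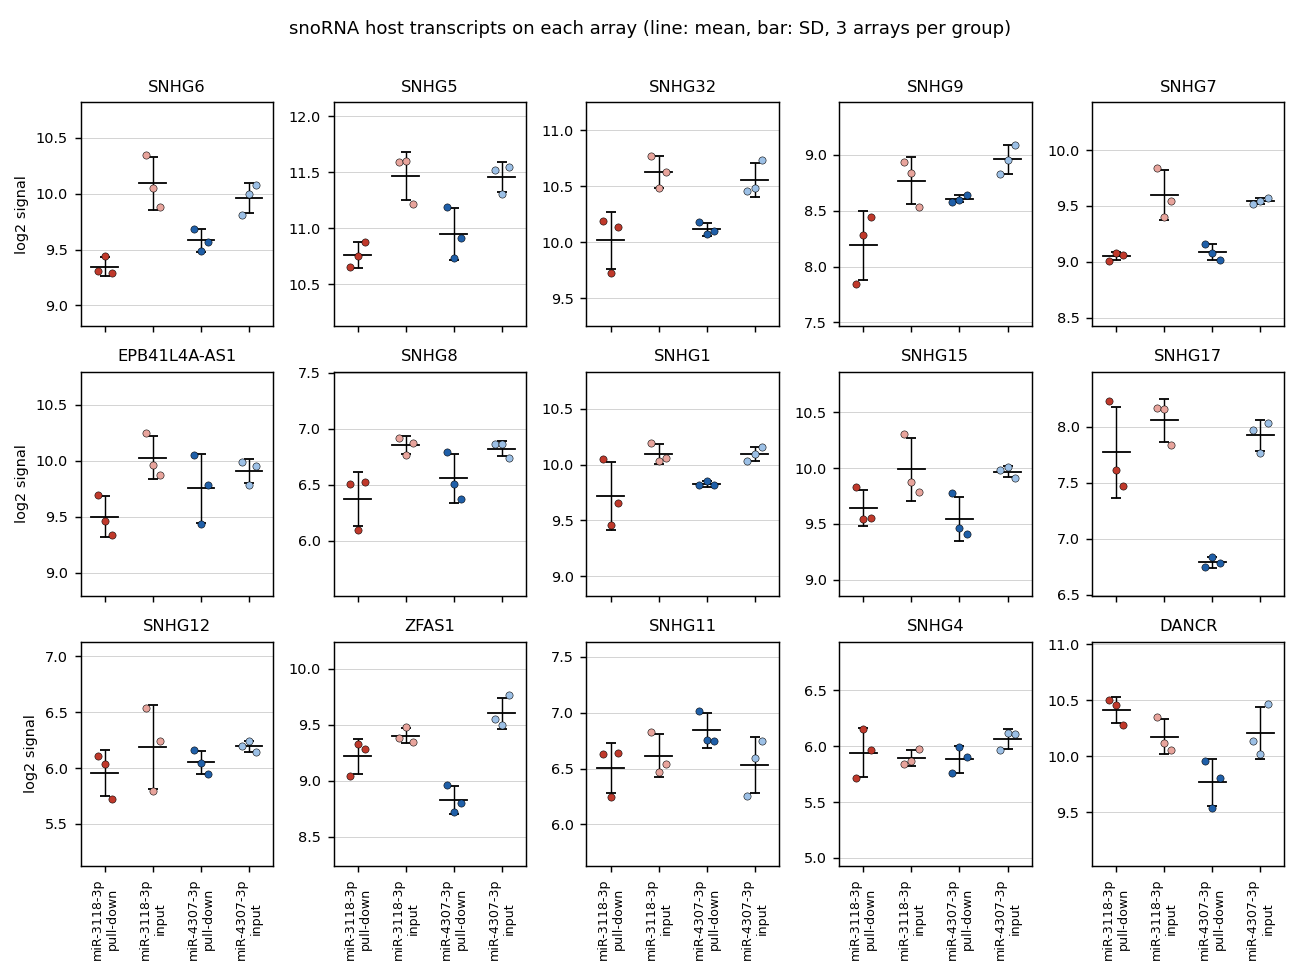
Log2 signal of the 15 snoRNA host transcripts, 1 panel each, with 3 arrays per group as points, the mean as a line and the SD as a bar. Panels are ordered by the difference of the miR-3118-3p pull-down from its input, from SNHG6 (-0.75) to DANCR (0.24), and each panel has its own vertical range.

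With miR-4307-3p 5 hosts were lower, SNHG17 and ZFAS1 by the most. Of all 72 members 2 rose and 6 fell. With the replicate block within each microRNA 3 rose and 11 fell, where 11.1% of all genes rose and 9.62% fell. Of the 15 hosts 5 fell and 0 rose, which is 33.3% lower, where 6.11% of all genes were lower and 8.04% higher. The median of the hosts was -0.38, against -0.02 over all genes, and 14 hosts lay below 0, against 53.4% of all genes.

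SNHG17, host of 4 SNORA71 genes and 1 further snoRNA, had 6.74, 6.84 and 6.79 in the pull-down of miR-4307-3p, against 7.97, 7.77 and 8.04 in its input. The groups did not overlap, and the difference was -1.14 ± 0.17 (adjusted p = 0.000328). ZFAS1, host of the SNORD12 genes and antisense to the 5′ end of ZNFX1, had 8.96, 8.72 and 8.80 in the pull-down, against 9.55, 9.50 and 9.76 in the input. It fell by 0.78 ± 0.13 (adjusted p = 0.000601), without overlap. Both calls held in each of 22 other settings of the analysis, with adjusted p-values up to 0.00315 for SNHG17 and 0.00575 for ZFAS1.

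SNHG5 had 11.19, 10.73 and 10.92 in the pull-down of miR-4307-3p, against 11.52, 11.31 and 11.55 in its input, a difference of -0.51 ± 0.15 (adjusted p = 0.0294). For SNHG7 the brightest probe gave 9.16, 9.08 and 9.02 in the pull-down, against 9.52, 9.55 and 9.57 in the input. It fell by 0.46 ± 0.12 (adjusted p = 0.0213). SNHG32 had 10.18, 10.07 and 10.10 in the pull-down, against 10.46, 10.49 and 10.73 in the input. The difference was -0.44 ± 0.14 (adjusted p = 0.0487), close to the threshold, and its call was lost in 13 of 22 other settings. None of these groups overlapped.

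The other 10 hosts did not pass with miR-4307-3p. DANCR, at -0.44 ± 0.15 (adjusted p = 0.0603), SNHG15 at -0.42 (adjusted p = 0.0794) and SNHG6 at -0.38 (adjusted p = 0.0772) were nearest to the threshold. SNHG11, host of SNORA60 and SNORA71E, was the exception in direction, at 0.31 ± 0.16 (adjusted p = 0.218). The remaining values lay between -0.35 for SNHG9 and -0.14 for SNHG12. Same-numbered pull-down and input arrays of this microRNA deviated together, so these values were also fitted with replicate numbers as a block within each microRNA. With that replicate block 7 hosts were lower, the 5 above with DANCR (adjusted p = 0.0215) and SNHG15 (adjusted p = 0.0242), where 9.62% of all genes were lower. Replicate 1 of the other pull-down enters here only by way of the common estimate of spread. Without it 8 hosts were lower, since SNHG6 was then called as well (adjusted p = 0.0483), where 10.1% of all genes were lower.

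The count for miR-4307-3p depended on 5 of its 6 arrays. Left out in turn, its pull-down replicates 2 and 3 and its input replicates 1 and 3 each brought the number of lower hosts down to 2. Without input replicate 2 it was 3, and without pull-down replicate 1 it was 6. The share of all genes lower also fell, from 6.11% to 3.03% and 2.44% without pull-down replicates 2 and 3. It was 3.32%, 2.87% and 3.45% without input replicates 1, 2 and 3, and 5.06% without pull-down replicate 1. After cyclic loess normalization 2 hosts were lower, where 3.95% of all genes were. With the spread of these 6 arrays alone 9 hosts and 12.3% of all genes were lower, and with array weights 11 hosts and 16.9% of all genes.

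With both microRNAs SNHG5, SNHG7 (by its brightest probe) and SNHG32 were called lower among the hosts. OIP5-AS1 was the fourth of 72 members lower in both, where 3.21% of all genes were lower with both. TUG1 was the 1 member higher with both, where 1.64% of all genes were. In all 12 of 15 hosts lay below 0 in both comparisons.

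**Figure D2:**
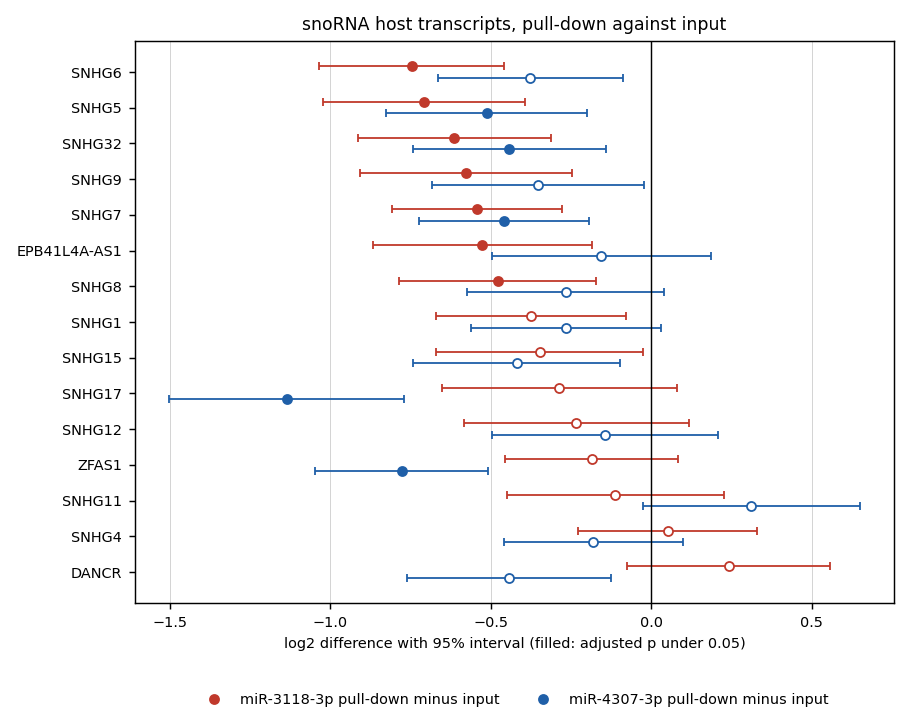
Log2 difference between pull-down and input for the 15 snoRNA hosts, with 95% intervals, for either microRNA; filled points passed the adjusted p of 0.05. Points lie left of 0 in both comparisons for 12 hosts, and SNHG17 is farthest left with miR-4307-3p at -1.14.

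**Figure D3:**
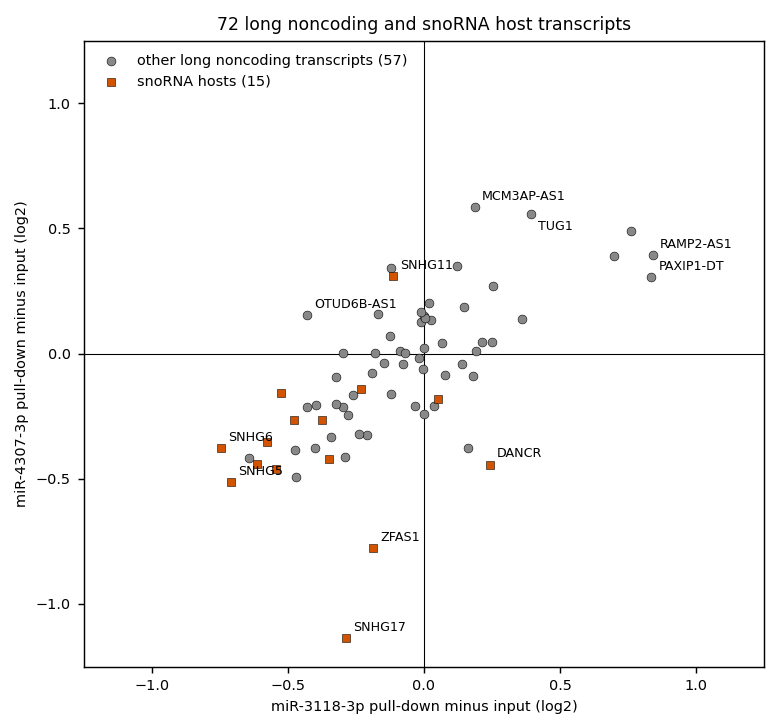
The 72 members by their log2 difference with miR-3118-3p (horizontal) and with miR-4307-3p (vertical), hosts as squares and other members as circles. Squares lie mainly at lower left, ZFAS1 and SNHG17 lie below the rest, and DANCR is right of 0 with miR-3118-3p (0.24) and below 0 with miR-4307-3p (-0.44).

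The difference of the enrichments, that of miR-3118-3p minus that of miR-4307-3p, was tested directly. SNHG17 was the 1 member called, at 0.85 ± 0.24 (adjusted p = 0.0438), where 2.86% of all genes were higher with miR-3118-3p and 4.73% lower. SNHG17 had, in the pull-down of miR-3118-3p, 8.24, 7.61 and 7.47, against 8.17, 8.17 and 7.84 in the input. Replicate 1 of that pull-down was the array that overlapped the inputs, and without it the difference of enrichments was 0.62 (adjusted p = 0.0314). The call was lost when any array of the miR-4307-3p groups or of the miR-3118-3p input was left out, with adjusted p-values from 0.0542 to 0.120.

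DANCR and ZFAS1 followed SNHG17 without passing. DANCR had 10.50, 10.46 and 10.28 in the miR-3118-3p pull-down, against 10.35, 10.12 and 10.06 in its input, and these groups overlapped. With miR-4307-3p it had 9.96, 9.54 and 9.80 in the pull-down, against 10.14, 10.02 and 10.47 in the input, with every pull-down array lower. The difference of enrichments was 0.68 ± 0.21 for DANCR (adjusted p = 0.0630). For ZFAS1 it was 0.59 ± 0.18 (adjusted p = 0.0573), and 0.68 without pull-down replicate 1 of miR-3118-3p (adjusted p = 0.0130). Both passed with the replicate block within each microRNA, DANCR at adjusted p = 0.0196 and ZFAS1 at adjusted p = 0.0369, which brought the members called to 3. That block pairs the arrays of miR-3118-3p as well, and with it 5.74% of all genes were higher and 6.4% lower. The 95% interval of the difference was -0.78 to 0.04 for SNHG6 and -0.64 to 0.25 for SNHG5.

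SNHG7 has 3 probes in the table, and they did not move alike. The brightest, used above, was lower with both microRNAs. The probe ILMN_3233205, which the annotation ties to the same RefSeq transcript, had 7.56, 7.27 and 7.69 in the pull-down of miR-4307-3p, against 6.22, 6.25 and 6.38 in its input. There was no overlap, and it rose by 1.22 ± 0.18 (adjusted p over all named probes = 0.000259). With miR-3118-3p it had 6.69, 6.16 and 5.98 in the pull-down, against 6.53, 6.10 and 6.11 in the input, with overlap and a difference of 0.03 ± 0.18. Between the microRNAs this probe differed by -1.19 ± 0.25 (adjusted p over all named probes = 0.00771). The remaining probe, tied to another transcript version, gave -0.32 with miR-3118-3p and -0.20 with miR-4307-3p and passed in neither. The direction of SNHG7 with miR-4307-3p therefore depends on the probe. With the mean of its 3 probes SNHG7 was called with neither microRNA. It was then at -0.28 with miR-3118-3p (adjusted p = 0.168) and 0.19 with miR-4307-3p (adjusted p = 0.409).

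**Figure D4:**
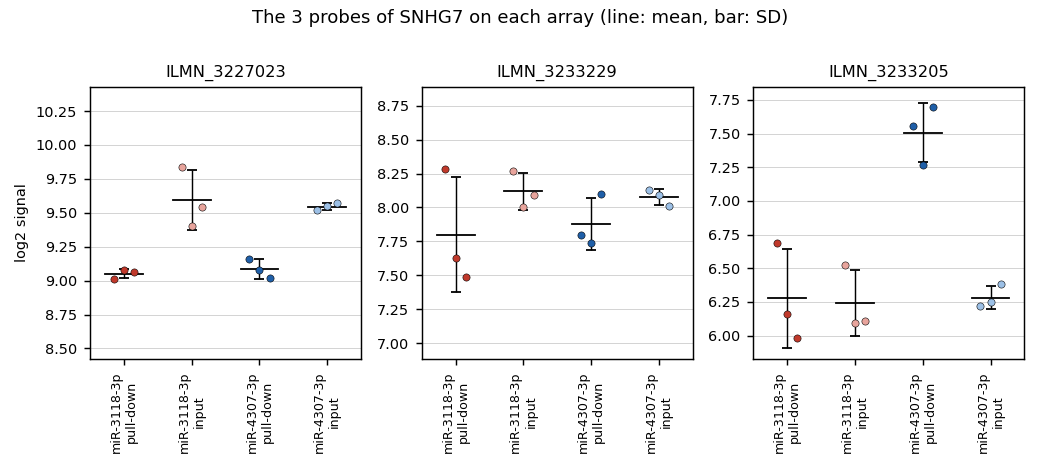
Log2 signal of the 3 probes of SNHG7 on each array, with the mean as a line and the SD as a bar, and a vertical range for each panel. The probe ILMN_3227023 is lower in both pull-downs, while ILMN_3233205 lies between 7.27 and 7.69 in the pull-down of miR-4307-3p, above its input values of 6.22 to 6.38.

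Among the 7 members with several probes all probes had the same sign for 5 with miR-3118-3p and for 5 with miR-4307-3p. Both probes of SNHG5 fell in both comparisons, the other probe with -0.88 (miR-3118-3p) and -0.49 (miR-4307-3p). For SNHG15 the other probe stood at -0.29 and -0.35, beside -0.35 and -0.42 for the probe used. LINC00339 was at -0.24 with miR-4307-3p by the probe used, while a dimmer probe gave -0.44 ± 0.13 (adjusted p over all named probes = 0.0263).

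The 57 members that host no snoRNA moved in both directions. With miR-3118-3p 5 of them rose and 6 fell, or 8.77% and 10.5%, near the 12.7% and 10.9% of all genes, and their median was -0.02. With miR-4307-3p 2 rose and 1 fell, or 3.51% and 1.75%, against 8.04% and 6.11% of all genes, with a median of 0.00. They were not tested against the hosts.

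RAMP2-AS1, named for its place antisense to the RAMP2 gene, had 12.80, 13.31 and 12.47 in the miR-3118-3p pull-down, against 12.31, 12.02 and 11.72 in its input. It rose by 0.84 ± 0.19 (adjusted p = 0.00627). PAXIP1-DT, transcribed divergently from PAXIP1, had 10.08, 10.29 and 9.47 in the pull-down, against 9.22, 9.21 and 8.90 in the input. It rose by 0.83 ± 0.18 (adjusted p = 0.00492). In both, every pull-down array was above every input array, and both calls held in each of 22 other settings. RAMP2-AS1 was at 0.87 and PAXIP1-DT at 0.77 without pull-down replicate 1.

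LINC01018 had 11.35, 11.62 and 10.44 in the miR-3118-3p pull-down, against 10.69, 10.41 and 10.04 in its input. It rose by 0.76 ± 0.24 (adjusted p = 0.0294), although pull-down replicate 3 overlapped the input arrays. The call of LINC01018 was lost in 5 of 22 other settings, at 0.44 with array weights (adjusted p = 0.130) and 0.52 without pull-down replicate 2 (adjusted p = 0.135), and also without input replicate 2 or 3. LINC00294 had 8.08, 8.83 and 8.04 in the pull-down, against 7.40, 7.72 and 7.74 in the input, without overlap. It rose by 0.70 ± 0.22 (adjusted p = 0.0305). Pull-down replicate 2 of LINC00294, at 8.83, was the highest of its group, and without it the difference was 0.44 (adjusted p = 0.143). The call of LINC00294 was also lost without input replicate 1, 2 or 3 (adjusted p from 0.0548 to 0.115). With miR-4307-3p RAMP2-AS1 stood at 0.39, PAXIP1-DT at 0.31, LINC01018 at 0.49 and LINC00294 at 0.39, and 0 of these passed. With the replicate block within each microRNA LINC01018 did (adjusted p = 0.0267).

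TUG1, a long noncoding RNA found in nucleus and cytoplasm, was higher with both microRNAs. It had 10.33, 10.67 and 10.51 in the miR-3118-3p pull-down, against 10.10, 10.13 and 10.12 in its input, a rise of 0.39 ± 0.13 (adjusted p = 0.0425). In the miR-4307-3p pull-down it had 10.34, 10.70 and 10.73, against 10.03, 10.10 and 9.97 in its input, a rise of 0.56 ± 0.13 (adjusted p = 0.00998). Its groups did not overlap in either comparison. The call with miR-3118-3p was lost in 13 of 22 other settings and that with miR-4307-3p in 2.

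MCM3AP-AS1, antisense to the gene of an mRNA export protein, rose with miR-4307-3p. It had 6.74, 6.83 and 6.86 in the pull-down of miR-4307-3p, against 6.16, 6.15 and 6.36 in its input, a difference of 0.59 ± 0.13 (adjusted p = 0.00814). The call held in each of 21 other settings. MCM3AP-AS1 lay near the lowest value of 5.53, with group means from 6.13 to 6.81. With miR-3118-3p it stood at 0.19 ± 0.13 (adjusted p = 0.336), and the difference between the microRNAs, at -0.40 with a 95% interval of -0.80 to 0.01, did not pass.

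OIP5-AS1, the human counterpart of the zebrafish cyrano RNA, was lower in both pull-downs. It had 8.51, 8.69 and 8.41 in the miR-3118-3p pull-down, against 9.27, 8.87 and 8.89 in its input, a difference of -0.47 ± 0.16 (adjusted p = 0.0417). In the miR-4307-3p pull-down it had 8.67, 8.41 and 8.64, against 8.82, 9.02 and 9.36 in its input, a difference of -0.49 ± 0.16 (adjusted p = 0.0472). The arrays did not overlap, but both adjusted p-values lay just under the threshold, and the calls were lost in 10 and 11 of 22 other settings.

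PRKCQ-AS1 had the largest fall among the non-hosts with miR-3118-3p, at -0.64 ± 0.17 (adjusted p = 0.0136), with 7.19, 6.82 and 7.11 in the pull-down, against 7.92, 7.68 and 7.43 in the input. UBE2D3-AS1 was at -0.47 ± 0.13 (adjusted p = 0.0141), PAK6-AS1 at -0.43 ± 0.13 (adjusted p = 0.0273), OTUD6B-AS1 at -0.43 ± 0.14 (adjusted p = 0.0377) and LINC01315 at -0.40 ± 0.14 (adjusted p = 0.0459). Groups did not overlap for any of these 5. The last 4 lay near the lowest value of 5.53, with pull-down means from 5.7 to 6.1 and input means from 6.1 to 6.6. Of the 18 members called with miR-3118-3p, OTUD6B-AS1 (adjusted p = 0.0570) and LINC01315 (adjusted p = 0.0653) were the ones no longer called without pull-down replicate 1. Over all other settings the call of LINC01315 was lost in 14 of 21, that of OTUD6B-AS1 in 9 of 21 and that of PAK6-AS1 in 5 of 21. With miR-4307-3p OTUD6B-AS1 stood at 0.15 and the other 4 between -0.42 and -0.20, and 0 of the 5 passed. With the replicate block within each microRNA PRKCQ-AS1 (adjusted p = 0.0484) and UBE2D3-AS1 (adjusted p = 0.0353) did. CYTOR, a cytoskeleton regulator RNA, was at -0.34 ± 0.13 with miR-3118-3p (adjusted p = 0.0591) and -0.33 ± 0.13 with miR-4307-3p (adjusted p = 0.0871), without overlap in either. Without pull-down replicate 1 it was -0.39 with miR-3118-3p and passed (adjusted p = 0.0337).

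The 45 non-hosts called in no comparison of the main fit (CYTOR among them) ranged from -0.40 for KRT10-AS1 to 0.36 for ITPK1-AS1 with miR-3118-3p, and from -0.41 for MORC2-AS1 to 0.35 for PGM5-AS1 with miR-4307-3p. Their 95% intervals reached a median of 0.28 to either side, so that differences of that size were within the error. For KRT10-AS1 with miR-3118-3p the interval was -0.75 to -0.05 (adjusted p = 0.0901). Without pull-down replicate 1 KRT10-AS1 was at -0.59 and passed (adjusted p = 0.00537).

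**Figure D5:**
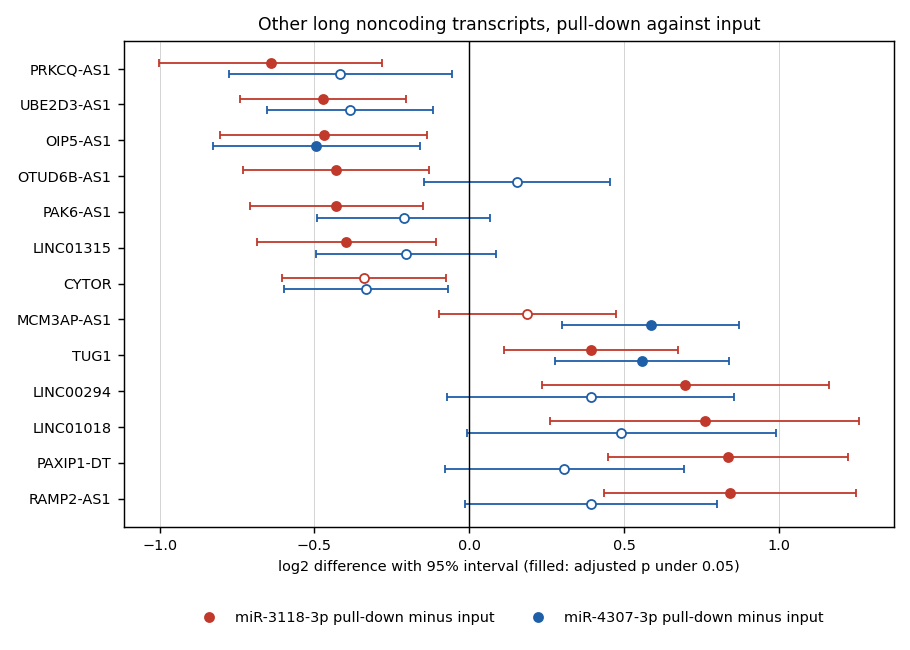
Log2 difference between pull-down and input, with 95% intervals, for the 12 non-host members called in a comparison and for CYTOR; filled points passed the adjusted p of 0.05. RAMP2-AS1 (0.84) and PAXIP1-DT (0.83) are farthest right with miR-3118-3p, and PRKCQ-AS1 (-0.64) is farthest left.

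Names with -AS or -DT point to a neighbouring gene, and for 28 of 39 members so named that partner was in the table (27 partners, since PAXIP1 has 2). With miR-3118-3p 1 of these 28 members rose and 4 fell, while 4 of 27 partners rose and 2 fell, where 12.7% of all genes rose and 10.9% fell. Without pull-down replicate 1 the members' counts were 1 and 4 and the partners' 6 and 1, where 17.7% of all genes rose and 15.2% fell. With miR-4307-3p 1 of these members rose and 1 fell, while 2 partners rose and 1 fell, where 8.04% of all genes rose and 6.11% fell. OIP5, a centromere protein gene, was the 1 partner called together with its antisense member. It was lower with both microRNAs, at -0.45 (adjusted p = 0.0490) with miR-3118-3p and -0.67 (adjusted p = 0.00922) with miR-4307-3p, as OIP5-AS1 was. Without pull-down replicate 1 OIP5 no longer passed with miR-3118-3p (-0.43, adjusted p = 0.0587). OTUD6B rose by 0.93 with miR-4307-3p (adjusted p = 0.00855), where its antisense member was at 0.15. With miR-3118-3p OTUD6B was at 0.28 (adjusted p = 0.364) beside -0.43 for OTUD6B-AS1. Without pull-down replicate 1 OTUD6B was at 0.60 and passed (adjusted p = 0.0061), while OTUD6B-AS1 was at -0.39 and did not (adjusted p = 0.057). PAXIP1 was at 0.13 beside 0.83 for PAXIP1-DT with miR-3118-3p, PRKCQ at 0.11 beside -0.64 for PRKCQ-AS1, and MCM3AP at -0.15 beside 0.59 for MCM3AP-AS1 with miR-4307-3p. EPB41L4A, at -0.02 with miR-3118-3p, did not pass where EPB41L4A-AS1 fell by 0.53. The differences between a member and its partner were not tested.

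Protein-coding genes that carry snoRNAs in introns were called in both directions. Beside the counts of this and the following lists stand, over all genes, 12.7% higher and 10.9% lower with miR-3118-3p and 8.04% higher and 6.11% lower with miR-4307-3p. Without pull-down replicate 1 the miR-3118-3p shares of all genes are 17.7% and 15.2%. Of 49 such genes measured, 45 hold an annotated snoRNA gene in RefSeq's table; RPL31, STT3A, PRKDC and UNC45A do not. With miR-3118-3p 8 of the 49 were higher and 6 lower, with a median of 0.03, and 11 higher and 8 lower without pull-down replicate 1. With miR-4307-3p 7 were higher and 5 lower, with a median of -0.01. TAF1D, a polymerase I factor whose gene spans 8 snoRNA genes, went opposite ways, at -0.74 ± 0.15 with miR-3118-3p (adjusted p = 0.00279) and 0.80 ± 0.15 with miR-4307-3p (adjusted p = 0.00170). The difference between the microRNAs was -1.54 ± 0.21 (adjusted p = 0.000190). PRKDC, the DNA-dependent protein kinase, rose with both, by 1.96 ± 0.25 and 1.58 ± 0.25. CWF19L1, host of SNORA12, rose by 1.18 with miR-3118-3p, and the chaperone gene HSPA9, host of SNORD63, by 1.86 with miR-4307-3p.

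Of 21 proteins of snoRNPs and their assembly, 2 mRNAs were higher and 5 lower with miR-3118-3p (3 and 7 without pull-down replicate 1), and 4 higher and 3 lower with miR-4307-3p. NOP58 and NOP56, core proteins of box C/D snoRNPs whose own genes host snoRNAs, rose with miR-4307-3p by 2.30 ± 0.20 and 1.29 ± 0.12, and the assembly factor RPAP3 by 1.36 ± 0.24. Between the microRNAs 0 of the 21 were higher with miR-3118-3p and 4 lower (2 and 4 without that array), NOP58 (-2.63), NOP56 (-1.54), RPAP3 (-1.43) and the assembly factor ZNHIT6 (-0.83). Of all genes 2.86% were higher and 4.73% lower between the microRNAs, and 7.87% and 6.18% without that array. SHQ1, an assembly factor of box H/ACA snoRNPs, fell with both, at -0.70 (miR-3118-3p) and -0.60 (miR-4307-3p). NOP10, a core H/ACA protein, fell by 0.44 with miR-3118-3p, and NOLC1, a nucleolar chaperone of snoRNPs, by 0.67. NUFIP1 was among the 2 called higher with miR-3118-3p, at 0.98 ± 0.17 without pull-down replicate 1 (adjusted p = 0.000441).

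Of 17 factors of nonsense-mediated decay, 2 were higher and 0 lower with miR-3118-3p (3 and 2 without pull-down replicate 1), and 3 higher and 1 lower with miR-4307-3p. UPF2 rose by 0.91 ± 0.17 with miR-4307-3p, and MAGOH, of the exon junction complex, fell by 0.57 ± 0.12. With miR-3118-3p the release factor ETF1 rose by 0.67 ± 0.14. Of 17 paraspeckle and nuclear speckle proteins 4 were higher and 0 lower with miR-3118-3p (5 and 0 without pull-down replicate 1), and 4 higher and 1 lower with miR-4307-3p, with PSPC1, a core paraspeckle protein, at 1.61 ± 0.17. PNN, a speckle protein, rose with both, by 0.93 ± 0.14 with miR-3118-3p and 1.45 ± 0.14 with miR-4307-3p. Of 3 measured genes listed with NORAD, its ligand PUM2 rose by 0.76 ± 0.14 with miR-3118-3p, and 0 passed with miR-4307-3p.

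TOP mRNAs outside the ribosomal protein genes were called in both directions. Of 21 measured, 3 were higher and 5 lower with miR-3118-3p (6 and 7 without pull-down replicate 1), and 3 higher and 5 lower with miR-4307-3p, with medians of -0.10 and -0.13. PABPC1, the poly(A)-binding protein, rose by 1.21 ± 0.13 with miR-3118-3p, while the splicing factor HNRNPA1 fell by 0.98 ± 0.25. HNRNPA1 was at -0.65 without pull-down replicate 1 (adjusted p = 0.0209). All genes named from these lists for a call with miR-3118-3p were also called without that array, and the alternative was chosen after seeing the data.

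No member passed between the inputs. Input against input, miR-3118-3p minus miR-4307-3p, called 0 of 72 members and 0% of all genes with limma. At an unadjusted p under 0.05 there were 0 members and 160 of 9581 genes. Members ranged from -0.26 for LINC00938 to 0.31 for VPS9D1-AS1, and the hosts from -0.20 for ZFAS1 to 0.13 for SNHG6 and SNHG17. For ZFAS1 the 95% interval was -0.47 to 0.07, so smaller differences between the inputs could not be seen with 3 arrays per group.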

How the data were processed

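The log2 values are those of the series matrix that the authors deposited, and the submitters' processing notes name lumi 2.2.1. The sources used here do not state how they were normalized, transformed (plain log2 or variance-stabilising) and filtered. In a further table, of signals without normalization, 12 value columns match no sample label and were not used. Array medians lay between 7.53 and 7.59, and 0 pairs of arrays held identical values.

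Gene names come from GEO's annotation of the platform, brought up to date by gene identifier. There were 15025 probes, of which 12354 carried 1 symbol, 2 carried several and 2669 are absent from that annotation. Of those with 1 symbol 12352 were matched by identifier and 2 by an older symbol. For 2331 genes with several probes the brightest over the 12 arrays was taken. Probe sequences were not used, so what else a probe may bind was not checked.

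Tests were made with limma 3.58.1 in R 4.3.3 (lmFit, eBayes, 4 group means, 8 residual degrees of freedom), two-sided, with Benjamini-Hochberg adjustment over 9581 genes, or over 12354 probes where said, and were tested on simulated data. Replicate numbers come from the titles. Pull-down and input arrays of the same number had deviations from their group means that correlated with r = 0.204, 0.342 and 0.286 for miR-4307-3p, each over 0.1. For miR-3118-3p r was 0.344, 0.0736 and 0.476. Since 0.0736 is under 0.1, the numbers were taken to pair arrays of miR-4307-3p only, although the other values were no lower than those of miR-4307-3p. The block within each microRNA, also used for the difference of enrichments, pairs the arrays of both. With it 9 of 15 hosts were lower with miR-3118-3p, where 15.1% of all genes were lower and 16.8% higher. The main fit has no block.

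Members and lists were chosen with earlier results of these data known. Hosts are the SNHG genes with ZFAS1, EPB41L4A-AS1 and DANCR. All hosts, members listed by name and called members are named, with up to 4 called genes per related list. Figures used matplotlib 3.10.9 in Python 3.11.15.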

Additional observations from a re-analysis of the deposited data

Results flagged for a closer look

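SNHG17 differed between the microRNAs, with a difference of enrichments (miR-3118-3p minus miR-4307-3p) of 0.85 ± 0.24 and adjusted p = 0.0438. It was lower than the input on 3 of 3 pull-down arrays of miR-4307-3p.

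The SNHG7 probe ILMN_3233205 differed between the microRNAs as well, by -1.19 ± 0.25 (adjusted p over all named probes = 0.00771). It was higher than the input on 3 of 3 pull-down arrays of miR-4307-3p, while the brightest probe of SNHG7 was lower on all of them. This probe was picked out after its values were seen, and what it binds was not tested.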

How the results depend on the processing

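Every array left out in turn (12 settings) and 10 other settings were run, in none of which a host was called higher in a pull-down than in its input. With miR-3118-3p 18 members were called, 6 with its 6 arrays alone, and from 7 (without its input replicate 1) to 23 (without its pull-down replicate 1) when an array was left out. Of all genes 12.7% were higher and 10.9% lower, against 6% and 4.27% with the 6 arrays alone. Without that input array the shares were 9.12% and 7.32%, and without that pull-down array 17.7% and 15.2%. Lower hosts numbered 7, with 3 in its 6 arrays alone, 9 with the replicate block within each microRNA and from 4 to 10 with an array left out. With miR-4307-3p 8 members were called. There were 4 after cyclic loess, 27 with array weights, 20 with its 6 arrays alone, 14 with the replicate block within each microRNA, and from 3 (without its pull-down replicate 2 or 3) to 14 (without pull-down replicate 1 of miR-3118-3p) with an array left out. Of all genes 8.04% were higher and 6.11% lower. The shares were 9.37% and 3.95% after cyclic loess and 16.6% and 16.9% with array weights. With the 6 arrays alone they were 13.2% and 12.3%, and with the block 11.1% and 9.62%. They were 5.57% and 3.03% without pull-down replicate 2, 5.42% and 2.44% without replicate 3, and 11% and 10.1% without that miR-3118-3p array. Lower hosts numbered 5, with 2 after cyclic loess, 11 with array weights, 9 in its 6 arrays alone and from 2 to 8 with an array left out.

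The difference of enrichments called 1 member, and 2 after cyclic loess, after quantile normalization or with the mean of all probes. It called 3 with array weights or with the replicate block within each microRNA, and from 0 to 3 with an array left out. Of all genes 2.86% were higher and 4.73% lower in the main fit. The shares were 2.72% and 4.86% after cyclic loess and 3.05% and 4.75% after quantile normalization. They were 2.96% and 4.97% with the mean of all probes, 6.89% and 6.5% with array weights, and 5.74% and 6.4% with the block. With an array left out they ran from 1.75% to 7.87% higher and from 3.71% to 6.18% lower. Between the inputs 0 members were called in each setting run, which leaves out the block within each microRNA and the 6 arrays alone. Among called differences the sign changed in 3 cases, all of SNHG7, while several differences that were not called also changed sign. With the mean of its probes it was 0.19 with miR-4307-3p (adjusted p = 0.409), and its probe ILMN_3233205 gave 0.035 with miR-3118-3p and 1.22 with miR-4307-3p. Apart from the probes of SNHG7, the cause of these changes was not tested.

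Background correction by neqc and a filter on detection were not run, since columns of the signals before normalization could not be tied to samples. With 3 arrays per group, and 36 of 72 members within 1 of the lowest value, small changes of dim members could not be resolved.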
